A study of Mus musculus with 2 samples.

Results

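The genes described here encode the proteins of the cytoplasmic ribosome. They were taken as the autosomal protein-coding genes of GENCODE vM21 whose symbol begins with Rpl or Rps and a number, or is Rplp0, Rplp1 or Rplp2, without the S6 kinases, symbols ending in l1 and symbols of pseudogenes. This gave 79 of 20807 autosomal protein-coding genes, lying on 18 autosomes, of which 43 encode large-subunit proteins, 29 encode small-subunit proteins and 7 carry the symbol of a paralogue or of another protein (Rps27l, Rps27rt, Rpl10l, Rpl36al, Rpl39l, Rpl3l and Rps19bp1). The rule uses names alone and no measured value, though it was set with earlier results of these data known. The median length of the genes was 3368 bp, against 17629 bp over all protein-coding genes.

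SCoTCH-seq was run on genomic DNA of E14 mouse embryonic stem cells (mESCs), a male line derived from the 129 strain, grown on gelatin in serum with leukaemia inhibitory factor (serum/LIF). The cells carried no treatment, and 2 passages of the same line gave replicates 1 and 2 of a single condition, so no comparison between conditions was possible. The method tethers the strands of a DNA fragment and reads C, 5-methylcytosine (mC, M) and 5-hydroxymethylcytosine (hmC, H) on both, so that each read pair gives 1 of 9 CpG states at a CpG site. A state is written with the plus strand first, so that CC is unmodified on both strands, MM is methylated on both, and HC or CH carries hmC opposite an unmodified C. Transcripts were not measured.

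Ribosomal proteins are made in nearly equal amounts in every growing cell, from single-copy genes that are among the most strongly transcribed in the genome. Their mRNAs begin with a C followed by a run of pyrimidines, the 5′ terminal oligopyrimidine (TOP) motif, through which growth signals set their translation. Retrotransposition of these abundant mRNAs has left many processed pseudogenes that carry the exons of a parent gene without its promoter. CpG-rich promoters of active genes are typically free of methylation, whereas most CpG sites elsewhere in mammalian genomes are methylated.

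The files held 13676795 CpG sites with 143497239 calls in replicate 1 and 4918612 sites with 31306245 calls in replicate 2, at a median of 10 and 6 calls per site. Within the spans of the ribosomal protein genes and 2 kb on both sides there were 8642 sites with 86610 calls and 3488 sites with 22672 calls. A level is the percentage of all calls in a region, and pairs of levels are given for replicate 1 and then replicate 2. The promoter was 1 kb either side of the start of the gene record, the body ran from there to the end, and the 3′ flank covered the 2 kb beyond. A gene was called measured in a region with at least 5 sites in each replicate, which 74 of the 79 genes reached in the promoter, 56 in the body and 59 in the 3′ flank. No site of Rps19bp1 and no promoter site of Rps25 was analysed here. As a check of the cell label, CC made up 98.7% and 100% of promoter calls at Pou5f1, 99.8% and 100% at Sox2 and 80.1% and 86.2% at Nanog, genes that define embryonic stem cells.

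Sequences are shown first for the start sites, since the TOP motif is the feature these promoters are known by. RefSeq promoter sequences of GRCm38.p6 (250 bases before to 50 after the start) were at hand for 59 of the 79 genes and for 15686 genes in all. A C at the start followed by at least 4 pyrimidines was found in 13 of the 59 (22%), against 2.18% of all genes. Within 10 bases of the start, a C followed by at least 7 pyrimidines occurred in 19 (32.2%), against 8.2% of all genes. The 13 include Rps27rt. These counts depend on where RefSeq places the start, and thus do not give the share of genes without the motif. The RefSeq start lay 493 bp from the start of the best supported transcript at Rpl35 and 575 bp from it at Rps25. The 5 sequences below cover 30 bases before to 25 bases after the start, 5′ to 3′ on the gene's strand, and capitals mark the C and its pyrimidine run. They belong to Rpl35 (chr2:39005107-39005161, minus strand), Rps27 (chr3:90213624-90213678, minus), Rplp2 (chr7:141447621-141447675, plus), Rps18 (chr17:33955641-33955695, minus) and Rpl28 (chr7:4792935-4792989, plus).
Rpl35: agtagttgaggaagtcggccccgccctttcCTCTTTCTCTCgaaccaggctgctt
Rps27: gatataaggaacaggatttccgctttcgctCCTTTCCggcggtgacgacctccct
Rplp2: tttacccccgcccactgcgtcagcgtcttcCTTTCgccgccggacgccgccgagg
Rps18: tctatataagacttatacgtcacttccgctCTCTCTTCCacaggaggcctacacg
Rpl28: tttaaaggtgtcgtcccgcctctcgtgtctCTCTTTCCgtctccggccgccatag
The windows of Rpl35, Rplp2 and Rps18 had no call in either replicate, and that of Rpl28 had none in replicate 2. Calls in the Rps27 and Rpl28 windows were all CC. All 64 calls of replicate 1 and all 10 calls of replicate 2 in the Rps27 window were CC, as were all 36 calls of replicate 1 in the Rpl28 window.

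A palindrome with a pair of CpGs, TCTCGCGAGA (the half-site TCTCG followed at once by its reverse complement), was searched on both strands and found in the promoter sequences of 5 genes (Rpl12, Rpl26, Rps19, Rps28 and Rps6), 8.47% of the 59 against 0.733% of all genes. It is shown in capitals for Rps19 (chr7:24884532-24884611, plus strand) and Rps28 (chr17:33824543-33824622, minus strand), because its CpGs can carry the marks measured here.
Rps19: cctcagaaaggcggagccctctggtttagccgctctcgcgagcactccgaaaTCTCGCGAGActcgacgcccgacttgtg
Rps28: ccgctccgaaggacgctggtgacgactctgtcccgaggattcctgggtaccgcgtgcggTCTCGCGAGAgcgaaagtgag
In replicate 1, all 44 calls at the CpGs of this motif were CC, and replicate 2 had no call there. At the CpGs of CCGGAAG, another motif searched, CC made up 94.8% of 153 calls and 15 of 19 calls (78.9%), from 18 and 3 sites. Genes with this motif include Rpl39l, where 48 of 91 and 7 of 18 calls of the whole promoter sequence were CC. Over the whole stretches shown, all 27 calls at Rps19 in replicate 1 were CC, and so were all 75 and 15 calls at Rps28. Other motifs searched on both strands were CTCTTTCC (15.3% of the 59 against 3.03% of all genes), CCGGAAG (37.3% against 12.7%), GGGCGG (59.3% against 49.1%), TGACGTCA (8.47% against 2.45%) and TATAAA (5.08% against 12.9%). CTCTTTCC overlaps a pyrimidine run at the start in Rpl28. Over all CpGs of the 59 promoter sequences, CC made up 98.1% of 5218 calls and 97.7% of 1385 calls.

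Promoters of the ribosomal protein genes were almost wholly unmodified. Over the 79 genes, CC made up 94.4% ± 0.421 of promoter calls (SD, n = 2 replicates), against 77.4% ± 1.39 over all other protein-coding genes. MM made up 3.04% and 3.36% of their promoter calls, HC/CH 0.831% and 0.841%, and HM/MH 0.414% and 0.365%. The median measured gene had a promoter CC level of 97.1% and 98.0%, and 56 of 74 were at or above 90% in both replicates. The share of all genes at or above 90% is not given, here or with the supported starts below. Genes of the mitochondrial ribosome, chosen by the symbols Mrpl and Mrps, stood at 91.2% and 90.1%, and genes of oxidative phosphorylation subunits at 93.1% and 90.3%. In an exact binomial test against the share over all tested genes (two-sided, Benjamini-Hochberg adjusted over 14907 genes, called at an adjusted p under 0.05 in both replicates), 61 of the 74 were called higher. The same test, which treats calls as independent, called 39.7% of all tested genes higher and 29.1% lower. Counts of genes called are read against such shares, except in the comparison with pseudogenes. The 5 genes called lower were Rpl17, Rps14, Rps2, Rpl39l and Rpl3l.

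**Figure D1:**
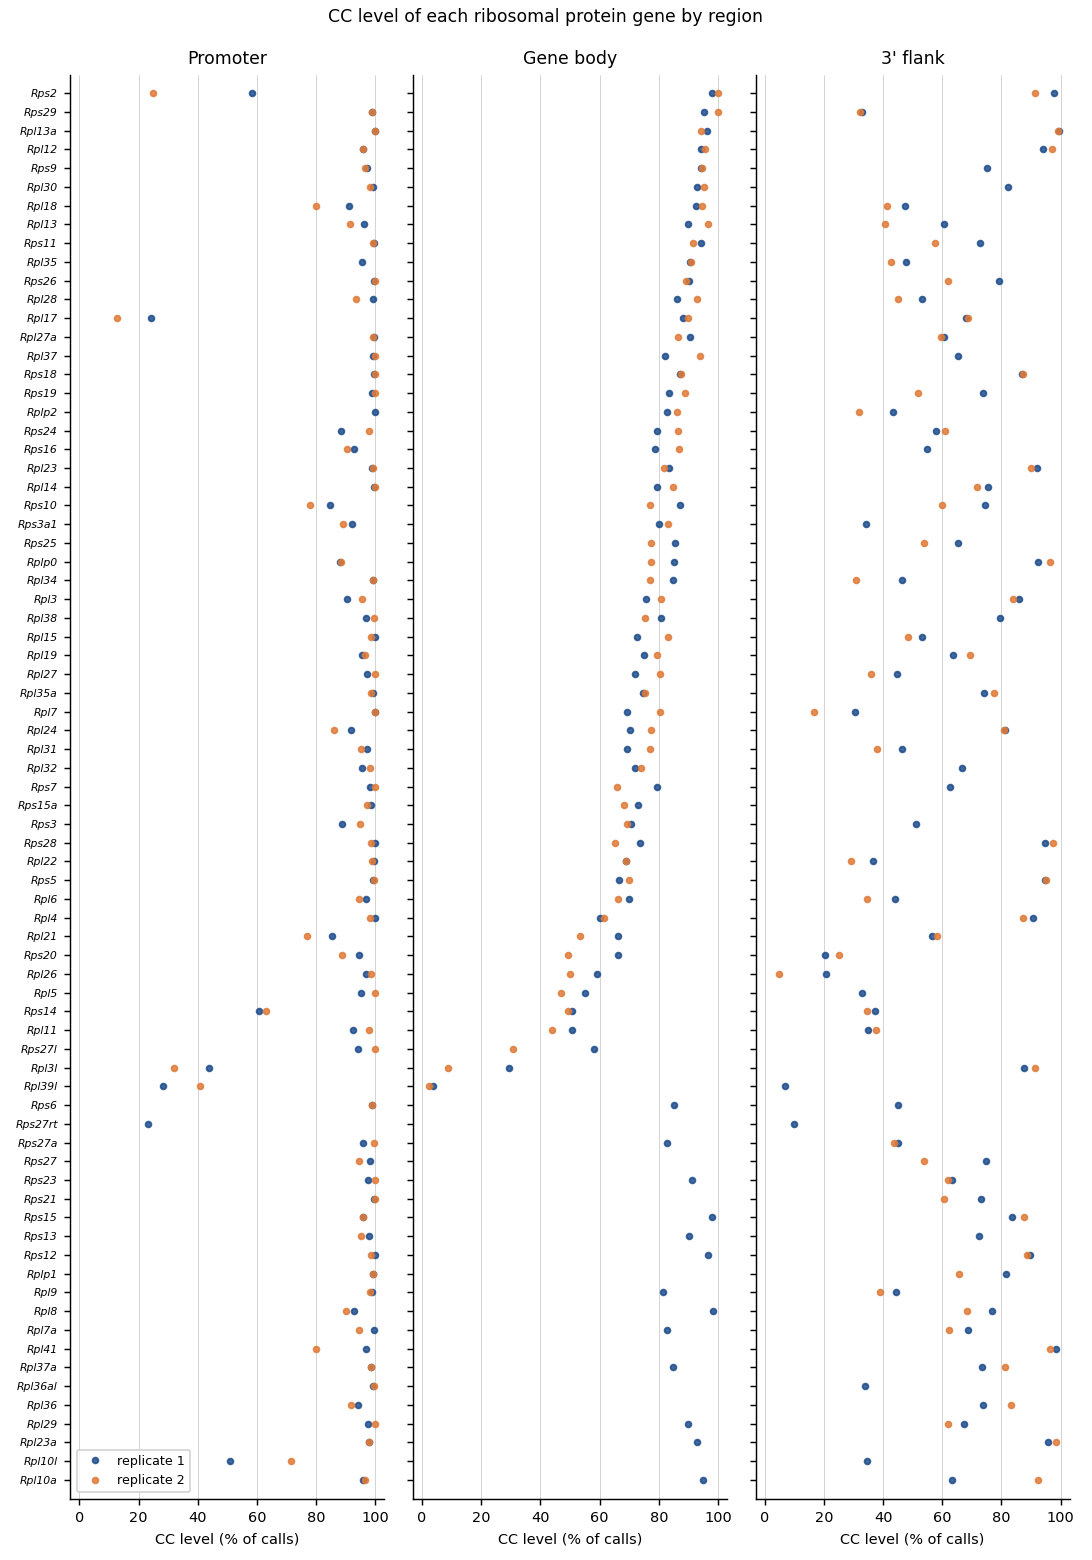
The CC level (% of calls) of each ribosomal protein gene in promoter, body and 3′ flank, with 1 point for each replicate and only genes with at least 5 sites in that replicate, without a few that are not reported here. Most promoters lie near 100%, bodies spread mainly between 50% and 98.0% in replicate 1, and Rpl39l and Rpl3l lie lowest in the body.

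Large- and small-subunit genes had like promoters, at 96.5% and 95.9% CC for the large subunit and 95% and 94.8% for the small subunit. The stalk proteins, which recruit translation factors to the ribosome, had promoter CC levels of 88.1% and 88.5% at Rplp0, 99.2% and 99.0% at Rplp1 and 100% and 90% at Rplp2, the last with only 3 sites in replicate 2. Rpl5 and Rpl11, which bind the 5S RNA and restrain Mdm2 when ribosome assembly fails, stood at 95% and 100% and at 92.5% and 97.9%. Rps27a, made as a fusion with ubiquitin, stood at 95.9% and 99.4%.

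Genes mutated in Diamond-Blackfan anaemia, an inherited failure of red cell production, covered the same range. Promoter CC was 98.7% and 100% at Rps19, 98.2% and 100% at Rps7, 99.4% and 100% at Rps26 and 99.1% and 98.3% at Rpl35a. Lower levels were read at Rps10 (84.7% and 77.8%) and Rps24 (88.5% and 97.8%). Further core genes with promoter CC under 90% in either replicate were Rps3a1 (92.2% and 89.2%), Rps20 (94.5% and 88.6%), Rpl21 (85.5% and 77.0%), Rpl18 (91.2% and 80%), Rps3 (88.8% and 94.8%), Rpl24 (91.9% and 86.0%) and Rpl41 (96.9% and 80%). Rplp0, above, and the 3 genes whose start is considered next were also under 90%. These levels cover 1 kb either side of the record start. In the shorter RefSeq promoter sequences, all 64 and 15 calls at Rps24 and all 107 and 58 at Rpl18 were CC. At Rps3 106 of 106 and 67 of 68 were CC, and at Rplp0 128 of 128 and 55 of 56. In replicate 1 alone, 93 of 94 were CC at Rps3a1 and 40 of 40 at Rpl41. Rpl24 stood at 95.4% and 86.2%, Rps10 had no call, and Rps20 and Rpl21 had no such sequence.

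For several core genes a low promoter level went with the start used. The gene record takes in every annotated transcript, and for 7 genes the first transcript of the best support level began more than 1 kb from its start. At Rps2 that start lay 1947 bp downstream, and the 100 bases before each start are shown for the plus strand with CpGs in capitals, the record start first (chr17:24718016-24718115, then chr17:24719963-24720062).
Rps2 record start: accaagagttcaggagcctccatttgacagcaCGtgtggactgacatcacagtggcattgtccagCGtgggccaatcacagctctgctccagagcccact
Rps2 supported start: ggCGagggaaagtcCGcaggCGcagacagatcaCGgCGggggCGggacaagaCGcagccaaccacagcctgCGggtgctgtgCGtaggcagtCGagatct
The record start had 2 CpGs in these bases and the supported start 10. CC made up 22 of 27 and 4 of 6 calls before the record start, and no call was read in the 100 bases before the supported start. Promoter CC of Rps2 was 58.5% and 25.0% around the record start and 99.6% and 100% around the supported start. The level went from 24.3% and 12.8% to 86.9% and 91.9% at Rpl17, and from 60.8% and 63.1% to 98.3% and 96.7% at Rps14. It also went from 84.7% and 77.8% to 96% and 82.6% at Rps10 and from 90.3% and 95.4% to 98.8% and 98.4% at Rpl3. With supported starts in all genes, which was tried only once the data had been seen, 59 of 74 genes were at or above 90% CC and 2 were called lower, against 28.7% of all genes tested.

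**Figure D2:**
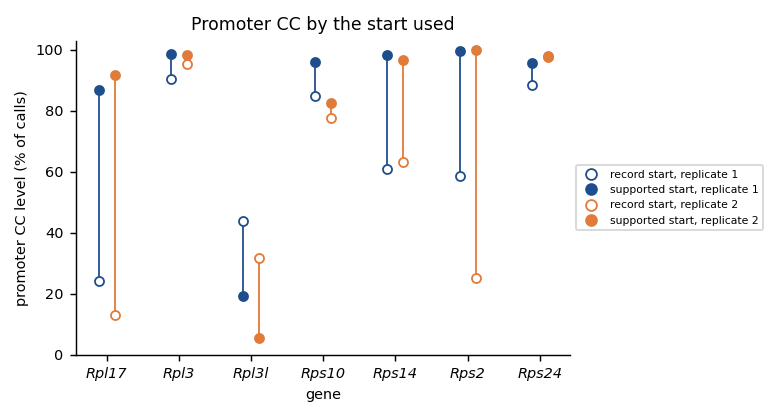
Promoter CC level (% of calls) around the start of the gene record (open points) and around the start of the best supported transcript (filled points) for the 7 genes in which these lie more than 1 kb apart, by replicate. In replicate 1 Rpl3l falls from 43.8% to 19.3%, and the other genes are higher at the supported start.

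The genes with paralogue symbols did not share one level. Rpl3l, a form of Rpl3 known from muscle, had promoter CC of 43.8% and 31.8%, and 19.3% and 5.60% around its supported start. Rpl39l and Rpl10l, known from the testis, stood at 28.2% and 40.9% and at 50.8% (exact 95% interval 41.9% to 59.6%) and 71.6% (59.3% to 82.0%). Rps27l, a paralogue of Rps27, stood at 94.1% and 100%, and Rpl36al at 99.3% and 99.4%, both within the range of the core genes. All intervals here cover counting error only.

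Rps27rt, whose symbol marks a retrogene of Rps27, let a start be compared with a copy of it. The 100 bases before to 20 bases after the RefSeq start are shown for both, on the minus strand, with CpGs in capitals (chr3:90213629-90213748 and chr9:114982720-114982839).
Rps27: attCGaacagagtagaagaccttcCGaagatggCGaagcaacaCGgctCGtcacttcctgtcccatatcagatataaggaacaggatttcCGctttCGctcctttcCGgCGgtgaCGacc
Rps27rt: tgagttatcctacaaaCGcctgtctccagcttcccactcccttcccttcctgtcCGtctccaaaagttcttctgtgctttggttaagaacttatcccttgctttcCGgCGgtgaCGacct
The longest run that their promoter sequences shared was 38 bases, starting at base 2 of Rps27 and base 1 of Rps27rt counted from the start, so it lay wholly past the start of both. The windows held 10 CpGs at Rps27 and 5 at Rps27rt. At Rps27 all 111 calls of replicate 1 and all 33 of replicate 2 were CC, whereas at Rps27rt 3 of 14 calls of replicate 1 (21.4%) were CC and replicate 2 had none. Over the promoter of 2 kb, Rps27rt had CC in 23.1% (15.6% to 32.2%) of 108 calls and 15.4% (1.92% to 45.4%) of 13 calls, against 98.2% and 94.3% at Rps27.

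Gene bodies of the ribosomal protein genes were also mostly unmodified, unlike those of other genes. CC made up 71.7% ± 0.721 of body calls (SD, n = 2), against 19.9% ± 2.20 over all other protein-coding genes. MM made up 18.5% ± 0.506, against 58.1% ± 2.97. Hemimethylation (MC/CM) stood at 4.25% and 4.71%, against 13.2% and 14.5%. Mitochondrial ribosomal protein genes had body CC of 27.1% and 24.2%, and oxidative phosphorylation genes 27.8% and 24.3%.

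Among the 56 genes with a measured body, the median CC level was 79.5% and 80%, with quartiles of 69.8% and 87.3% in replicate 1 and 67.9% and 89.3% in replicate 2. Body CC was at least 50% in both replicates in 49 of the 56, against 7.31% of 17925 genes, and at least 90% in 10, against 0.664%. The exact binomial test called 53 of the 56 higher in CC than the share over all tested genes, where 33.0% of all genes were called higher and 33.1% lower. In MM, 53 were called lower (31.4% of all genes) and 1 higher (24.9%), and in MC/CM, 39 were called lower (15.7%) and none higher (8.65%). Rpl39l was the gene called lower in CC and higher in MM. The large subunit stood at 74.6% and 75.1% body CC and the small subunit at 73.8% and 72.3%, and this difference was not tested.

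Genes were ranked from the top on the lower, and from the bottom on the higher, of their replicates. Among the highest body CC levels were those of Rps2 (98.0%, exact 95% interval 95.8% to 99.2%, and 100%, 95% to 100%), Rps29 (95.3% and 100%), Rpl13a (96.4% and 94.4%) and Rps9 (94.3% and 94.7%). Rps2 is a small-subunit protein near the mRNA entry channel, and MM made up 0.877% of its body calls in replicate 1 and 0 of 72 in replicate 2, which allows up to 4.17%. The 5 lowest by this ranking were those of Rpl39l (3.68%, 1.92% to 6.34%, and 2.50%, 0.304% to 8.74%), Rpl3l (29.2% and 8.63%), Rps14 (50.6% and 49.3%), Rpl11 (50.7% and 44.0%) and Rpl5 (55.2% and 46.9%). MM of the same 5 genes was 73.9% and 77.5% in Rpl39l, 48.1% and 68.0% in Rpl3l, 33.8% and 35.2% in Rps14, 33.5% and 37.3% in Rpl11 and 27.4% and 31.2% in Rpl5. Among the lowest MM levels were those of Rps2, Rpl13a (1.44% and 3.37%), Rpl12 (3.54% and 1.49%) and Rps29 (4.05% and 0 of 58 calls). The supported start of Rps2 lies inside the stretch counted as its body, so its CC and MM levels here take in the bases around that start. With supported starts, too few body sites of Rps2 were left for it to be measured. Replicates differed in body CC of 8 of the 56 genes in Fisher's exact test, against 46.1% of all genes, with Rpl3l and Rps27l (58.2% and 30.8%) among the 8. In replicate 2 alone, Rps27l lay below Rps14, Rpl11 and Rpl5.

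Other members with a known role lay between these. Rplp0 had body CC of 85% and 77.2% and Rplp2 82.8% and 86.1%, and Rplp1 had no body site. Rps27a stood at 82.9% and 92.9%, with 2 sites in replicate 2, and thus was not among the 56. Among the Diamond-Blackfan genes, body CC was 83.3% and 88.7% at Rps19, 79.5% and 65.8% at Rps7, 87.1% and 77.2% at Rps10, 79.3% and 86.6% at Rps24, 90.3% and 89.1% at Rps26 and 74.5% and 75.3% at Rpl35a. These 6 were all above the level over all other genes in both replicates, as were Rpl5 and Rpl11.

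Because the genes are short, their bodies lie close to the start, and the profile by distance was read for this reason. In bins of 200 bp around supported starts and inside genes, CC of the ribosomal protein genes was 99.2% and 98.6% in the first bin, 97.4% and 97.3% at 1.0 to 1.2 kb, 88.0% and 87.1% at 1.8 to 2.0 kb and 68.7% and 62.7% at 2.8 to 3.0 kb. All other genes fell from 86.7% and 85.1% to 64.6% and 61.3%, 39.8% and 35.5%, and 30.3% and 26.3% over the same bins. Mitochondrial ribosomal protein genes began as high, at 98.6% and 98.0%, and stood at 72.2% and 67.5%, then 28.0% and 22.1%, and at last 29.5% and 27.5%. Oxidative phosphorylation genes stood at 98.5% and 96.9%, 72.5% and 74.0%, 39.3% and 35.6%, and 29.5% and 29.5%. The unmodified stretch of the ribosomal protein genes thus ran further into the gene at equal distance from the start. These bins drew on 79 genes at the start, 73 at 1.0 to 1.2 kb, 67 at 1.8 to 2.0 kb and 46 at 2.8 to 3.0 kb. Upstream, CC was 81.3% and 74.8% at 1.0 to 0.8 kb before the start and 39.1% and 36.8% at 2.0 to 1.8 kb before it.

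**Figure D3:**
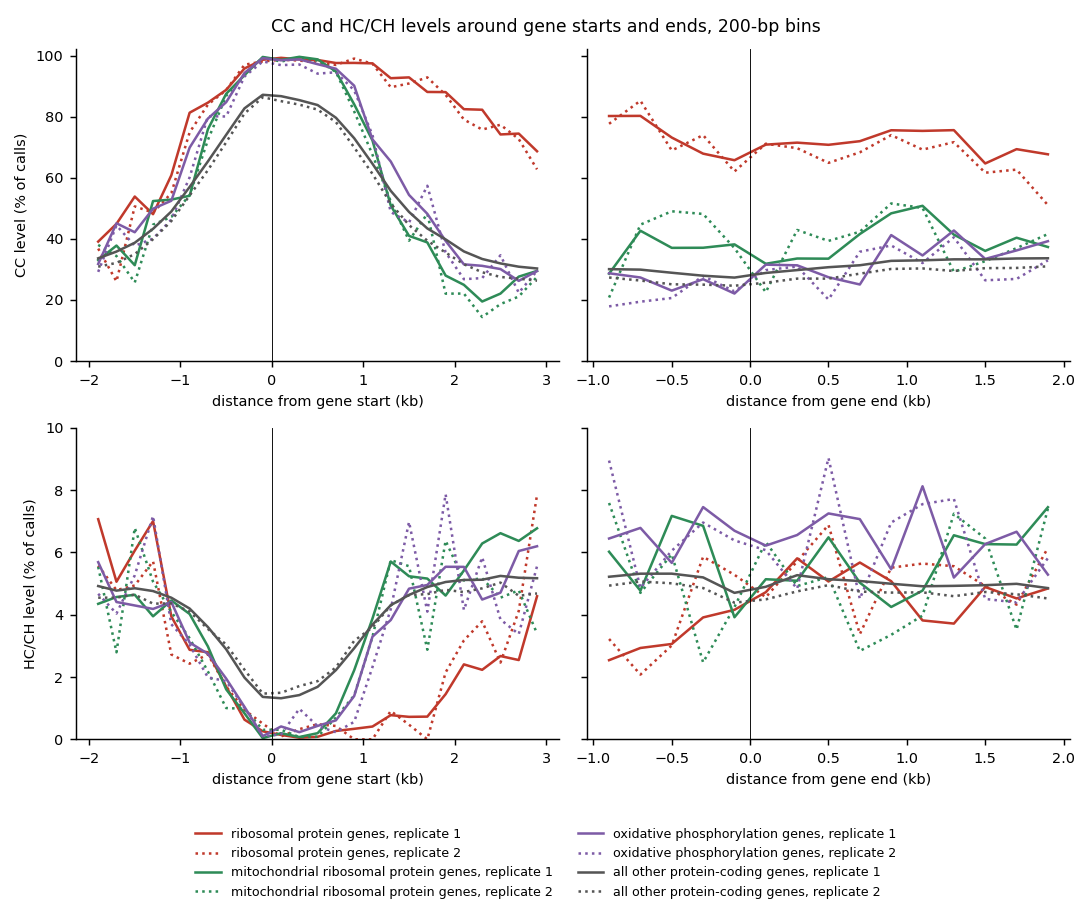
CC level (upper row) and HC/CH level (lower row), as % of calls, in 200-bp bins around gene starts and ends for ribosomal protein, mitochondrial ribosomal protein, oxidative phosphorylation and all other protein-coding genes, with replicates in different line styles. At 1.8 to 2.0 kb past the start, CC of the ribosomal protein genes is at 88.0% and 87.1%, above the 39.8% and 35.5% of all other genes, while HC/CH is at 1.45% and 2.15%, below 5.05% and 4.80%.

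When bodies were limited to sites within 4 kb of the start in all genes, which was also tried only with the data in view, CC was 82.2% and 82.3% in the ribosomal protein genes and 40.8% and 36.8% in all others. Under it 52 of 56 genes were called higher, against 22.5% of all genes. Over the 56 genes, body CC fell with gene length, with a Spearman correlation of -0.538 and -0.553, and rose with CpG density, at 0.504 and 0.481. These are descriptions over genes that share a library and whose bodies differ in distance from the start.

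Hydroxymethylation was low in these bodies, as was each other mark. HC/CH stood at 3.38% ± 0.167 of body calls (SD, n = 2), against 4.35% ± 0.339 over all other genes, and HM/MH at 1.80% ± 0.201, against 3.47% ± 1.07. Of reads of synthetic MM duplexes, 4.51% in replicate 1 and 0.467% in replicate 2 came out as HM/MH, and MM was more frequent in other genes. The HM/MH levels and calls of this paragraph are not corrected for such miscalls. HH stood at 0.225% and 0.122%. The exact binomial test called 1 of 56 genes higher in HC/CH (12.8% of all genes), Rpl3l, and 2 lower (8.6%), Rpl18 and Rps24. In HM/MH, Rpl18 and Rpl3 were called lower (2.13% of all genes) and none higher (2.01%). With supported starts no gene was called higher in HC/CH (12.6% of all genes) and 1, Rpl18, was called lower (8.43%). Rpl3 was then no longer called in HM/MH, where 1 gene stayed lower (1.95%). Outside exons none was called in HC/CH (11.6% of all genes higher, 7.86% lower), and only Rpl3 was lower in HM/MH (1.98%). Without sites of neighbouring genes, Rpl18 was called in neither state. The body of Rpl18 took in its RefSeq start with record and with supported starts, as described below. In replicate 1 alone, 20 were called lower in HC/CH (20.7% of all genes) and 28 lower in HM/MH (11.3%), whereas replicate 2 alone gave 2 (9.93%) and 2 (3.64%). Most single genes could not be told from the share over all genes at this depth. The percentages of all genes called rest mostly on longer bodies, and were not matched for length. With bodies limited to 4 kb from the start in all genes, 0 were called higher in HC/CH (0.449% of all genes) and 1 lower (0.205%).

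By the same ranking, the highest body HC/CH levels were those of Rpl3l (8.33%, exact 95% interval 6.37% to 10.7%, and 8.12%, 4.71% to 12.9%), Rpl26 (7.04% and 8.51%), Rpl5 (5.71% and 7.29%), Rps20 (6.01% and 5.08%) and Rpl4 (6.06% and 5.06%). Rpl26, a large-subunit protein, and Rpl5 were also among the highest in HM/MH, at 4.83% and 3.19% and at 4.28% and 4.17%, beside Rpl39l (5.52% and 5.00%), Rpl3l (6.14% and 3.55%) and Rpl21 (3.11% and 5.17%). Rps29 and Rps9 had no HC/CH call in either replicate. Their 148 and 58, and 229 and 75 calls allow levels of up to 2.03% and 5.17%, and 1.31% and 4%. Rps2 (0.585% and 0 of 72 calls, which allows up to 4.17%) and Rpl30 (0.717% and 0 of 85, up to 3.53%) followed. As above, the body of Rps2 takes in its supported start. Of the 5 genes lowest in body CC by the ranking above, Rpl3l and Rpl5 were among the 5 highest in HC/CH, and Rpl39l, Rps14 and Rpl11 were not. HC/CH rose with gene length, with a Spearman correlation of 0.653 and 0.503, over the same genes and libraries as above.

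As a share of the modified calls alone, and pooled over each region, HC/CH was higher in the ribosomal protein genes than in other genes. In the body it made up 11.7% and 12.2% of all calls other than CC, against 5.84% and 5.04% over all other genes, 7.47% and 5.99% in mitochondrial ribosomal protein genes and 7.97% and 6.68% in oxidative phosphorylation genes. In the promoter the shares were 15.6% and 14.2% against 10.5% and 10.2% over all other genes, and in the 3′ flank 16.8% and 15.9% against 7.36% and 6.60%. Between 2 and 1 kb upstream they were 11.8% and 8.33% against 7.93% and 7.06%. MM made up most of the rest, at 65.2% and 65.3% of modified body calls against 71.3% and 73.7%. The difference from all other genes in the HC/CH share was larger than that between replicates in promoter, body and 3′ flank. By distance from the supported start, the share was not higher throughout. Within the first 1000 bp, in bins of 200 bp with few modified calls, it was lower than in other genes in replicate 1 from 200 to 400 bp (4.17% against 9.72%) and from 400 to 600 bp (5.56% against 10.4%). In replicate 2 it was lower from 0 to 200 bp (6.67% against 10%) and from 800 to 1000 bp (0% against 10.5%). Upstream, it was lower in replicate 2 alone in the bins from 1800 to 1600 bp (6.47% against 6.70%) and from 1200 to 1000 bp (6.04% against 8.05%) before the start. In the bins from 1000 to 1800 bp it was 0%, 8.77%, 5.13% and 0% in replicate 2, against 9.27%, 8.87%, 8.34% and 7.69% over all other genes. In replicate 1 it was above that of other genes in the first 3 of these bins and below it from 1600 to 1800 bp, at 6.11% against 8.63%. From 1800 to 3000 bp it was higher than in other genes in every bin of both replicates. Against oxidative phosphorylation genes, the share in replicate 1 was lower in every bin of the first 1000 bp, as from 0 to 200 bp (18.75% against 26.7%). In the 1000 bp before the start it was higher in replicate 1, except from 400 to 200 bp (14.9% against 18.3%). In replicate 2 it was lower from 200 to 400 bp (20% against 33.3%) and from 800 to 1000 bp (0% against 4.92%), and higher in the other bins within 1000 bp of the start. After correction by the call rates of synthetic duplexes in each library, the pooled shares in the body were 11.2% and 12.5% against 5.20% and 5.01%, and in the promoter 14.9% and 15.2% against 9.70% and 10.3%. No test over genes was made of these shares.

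**Figure D4:**
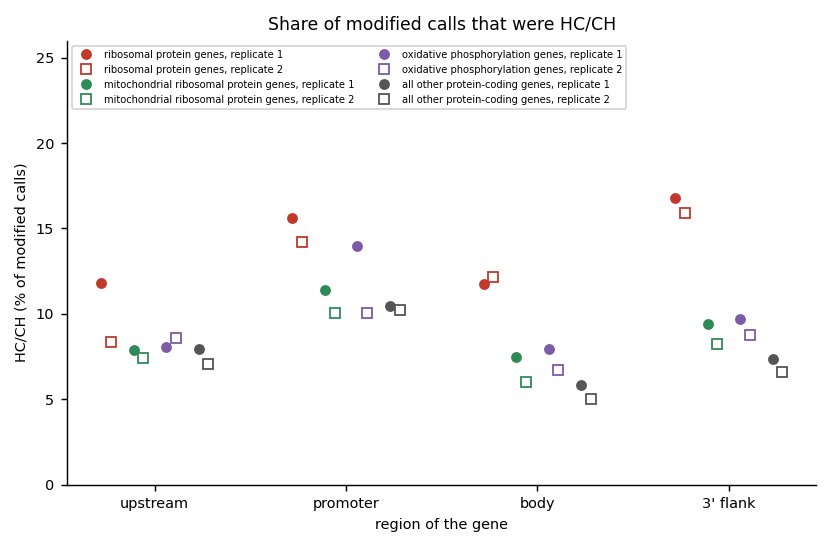
HC/CH calls as % of all modified calls (all states other than CC) in the 4 regions of a gene, for ribosomal protein, mitochondrial ribosomal protein, oxidative phosphorylation and all other protein-coding genes, with filled points for replicate 1 and open points for replicate 2. In the 3′ flank the ribosomal protein genes are at 16.8% and 15.9%, above the 7.36% and 6.60% of all other genes.

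Within bodies, HC/CH exceeded HM/MH in both replicates in 30 of 56 genes (53.6%) and lay below it in 1, against 56.9% and 6.34% of all genes. Only Rpl3 was called higher in HC/CH than in HM/MH by the exact binomial test against an even share (8.62% of all genes called higher, 0.0% lower), at 3.01% and 2.71% HC/CH, and it was not called with supported starts. The HM/MH level depends on miscalls, since 4.51% (replicate 1) and 0.467% (replicate 2) of reads of synthetic MM duplexes came out as HM/MH. With the call rates of these duplexes corrected for, body HM/MH of the ribosomal protein genes was 1.08% and 1.48%, and HC/CH 3.05% and 3.46%. Calls with hmC on the sense strand made up 51.1% of asymmetric hmC calls in replicate 1 (743 sense, 711 antisense) and 54.5% in replicate 2 (207 and 173). No gene, ribosomal or other, was called for strand by the exact binomial test (0.0% of all genes higher or lower), and at an unadjusted p under 0.05 in both replicates 15 genes were higher on the sense strand and 28 lower, none of them ribosomal.

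Past the gene end, ribosomal protein genes again carried more CC than other genes. With all sites of the flank counted, their HC/CH level was 4.83% in replicate 1 and 5.35% in replicate 2. The share over all tested genes was 5.15% and 4.88%, so the replicates differed in direction. CC of the 3′ flank was 68.8% ± 3.43 (SD, n = 2), against 30.4% ± 2.13, and HC/CH was 5.09% ± 0.372, against 4.85% ± 0.221. For 16 of the 79 genes the 3′ flank took in the promoter of another gene, as at Rplp0, whose flank read 92.4% and 96.3% CC. Without sites in the span of another gene or within 1 kb of its start, flank CC was 58.3% and HC/CH 6.46%, as means of the replicates. The levels of other genes given above keep such sites, so they are not a like comparison for these means. HC/CH was higher in the flank than in the body in both replicates in 22 of 42 genes (52.4%) and lower in 7, against 28.5% and 35.0% of 10374 genes.

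At Rpl18 this difference passed the test on its own. Rpl18, a large-subunit protein (chr7:45715457-45720836, plus strand), had HC/CH in 0.956% (exact 95% interval 0.414% to 1.87%) and 0.610% (0.0739% to 2.19%) of body calls, and in 10.8% (6.51% to 16.5%) and 16.2% (8.95% to 26.2%) of 3′ flank calls. It was the only one of 42 called higher in the flank than in the body in Fisher's exact test (0.26% of all genes called higher, 0.27% lower), and none was called lower. It was also the only one of 59 whose flank was called higher in HC/CH than the share over all tested genes (0.636% of all genes), and Rpl12 was the only one called lower (0.309%), with 1.06% of 566 calls and 0 of 178, which allows up to 1.69%. The flank of Rpl18 takes in the promoter of Fam83e, and too few sites for a test were left once sites of neighbouring genes were removed. The RefSeq start of Rpl18 lies 2614 bp downstream of the supported start, inside the stretch counted as body. In its RefSeq promoter sequence (chr7:45717821-45718120) all 107 and all 58 calls were CC, so its body levels take in that promoter and its promoter level is read at another place. At an unadjusted p under 0.05 in both replicates, 5 of 42 genes were higher in the flank than in the body and 2 lower, against 237 and 234 of 10374 genes. Promoter CC against body CC within a gene was called higher in 38 of 53 genes (79.8% of all genes) and lower in Rps2 and Rpl17 (3.5%). With supported starts Rpl17 was not called lower, and Rps2 had too few body sites to be tested.

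Processed pseudogenes named after ribosomal protein genes carried the opposite pattern to the exons they were copied from. The annotation held 238 of them, and MM made up 58.0% and 63.8% of their calls and CC 20% and 16.4%. Exons of the ribosomal protein genes, with those near the start, had MM of 7.88% and 7.46% and CC of 87.7% and 88.0%. Beyond 1 kb from the start, exon sites had MM of 14.6% and 13.8% and CC of 77.3% and 78.3%. Over all processed pseudogenes, MM was 60.1% and 63.4%, so the copies stood at the level of processed pseudogenes in general. The HC/CH share of modified calls was 12.2% and 15.1% in the exons and 6.24% and 4.69% in the copies, against 5.33% and 4.75% over all processed pseudogenes.

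Of 48 genes with copies named after them, 20 with 145 copies had enough sites to test, and Fisher's exact test (two-sided, Benjamini-Hochberg adjusted over the 20) called MM higher in the copies of 19 and lower in none. Parent genes outside this set were not tested, so no share over all such genes stands beside these counts, and they are not read as particular to ribosomal protein genes. Exons of Rps12 had MM of 0.493% and 0%, and its 8 copies 65.0% and 60%. Exons of Rps19 stood at 6.15% and 1.21% and its 14 copies at 54.0% and 60%. Rpl31, with 24 copies, had 17% and 31.6% in its exons and 64.7% and 75.8% in the copies. The smallest difference of replicate 2 among those called was at Rpl13, at 2.78% against 17.1% in its 5 copies, where replicate 1 had 5.16% against 50.5%. When only exon sites beyond 1 kb from the start were used, 11 of the 12 genes that could be tested were called higher in the copies. Reads of near-identical copies can be placed at the wrong locus, and the part of such reads was not tested.

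**Figure D5:**
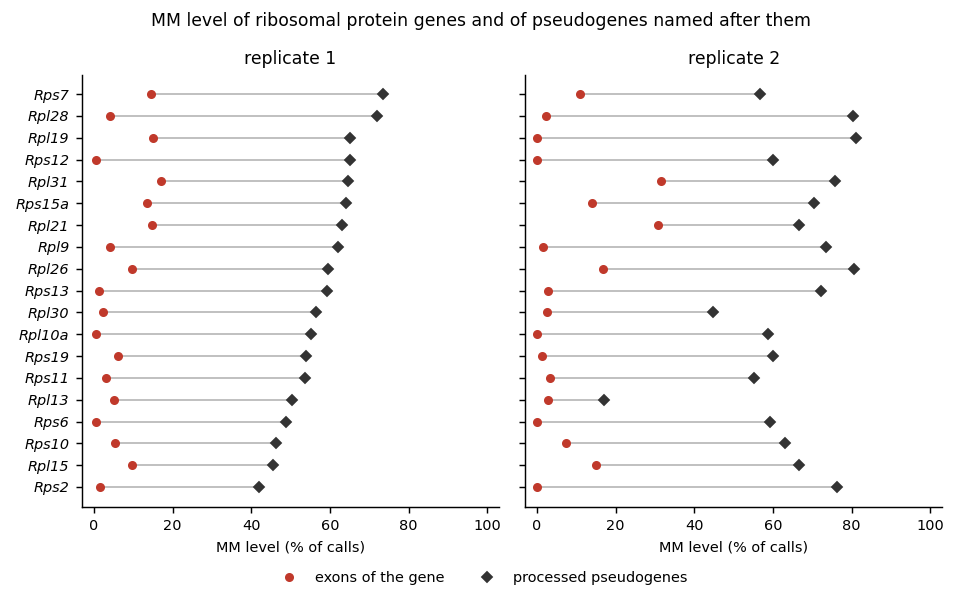
MM level (% of calls) in the exons of the 19 ribosomal protein genes called (circles) and in the processed pseudogenes named after them (diamonds), joined by a line for each gene, with 1 panel for each replicate. Copies lie to the right of the exons for all 19 genes in both replicates, from 0.493% to 65.0% for Rps12 in replicate 1.

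Genes that share the TOP motif or the ribosome but not the naming rule were read beside these, from a list of 17 of which 1 had no site. Rpsa, which encodes a small-subunit protein, had body CC of 90% and 78.6%, and Eef1a1, the elongation factor that brings tRNA to the ribosome, 83.0% and 85.4%. Of 15 tested in the body, 13 were called higher in CC (33.0% of all genes) and 1 lower (33.1%), Eif3f at 12.4% and 6.25%. In the promoter, 14 of 16 were called higher (39.7% of all genes) and none lower (29.1%). Pooled over the list, body CC was 40.4% and 37.3%, and its median over 15 genes was 57.7% and 52.8%. Eif3h held 682 of the 1727 body sites of replicate 1, with CC of 24.5% there. In HC/CH, Eif3h and Eef1g were called higher (12.8% of all genes), and 2 genes lower (8.6%), Rpsa among them.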

How the data were processed

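SCoTCH-seq libraries of 2 passages of E14 mESCs, given as replicates of 1 condition by the labels, were analysed. The authors trimmed and filtered read pairs, aligned inserts to mm10, discarded duplicates and assigned 1 CpG state per read pair and site. The submitters' processing notes list Cutadapt 4.6 and Picard 3.1.1. They deposited, per site and state, the counts of calls and the percent of the site's depth, leaving out sites under 5 calls. Counts were used as deposited, and the percentages matched count over depth. Genes came from GENCODE vM21, promoter sequences and CpGs from GRCm38.p6. Calls were summed per region, a site going to promoter, then body, then 3′ flank. The depth was a median of 10 calls per site in replicate 1 (interquartile range 7 to 13) and 6 in replicate 2 (5 to 7), so single sites are coarse.

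Exact binomial and Fisher's exact tests (two-sided) were run per gene and replicate over all autosomal genes with at least 5 sites in each replicate, with Benjamini-Hochberg adjustment, and called at 0.05 in both replicates. Intervals were computed by the exact Clopper-Pearson method at 95%, and the limit for a count of 0 is 3 calls of the total. Genes named were the 5 highest or lowest in body states, those with promoter CC under 90%, those called in a direction shared by 5 or fewer, paralogue symbols, and the role lists. The 5 with the highest and lowest body CC, Rps27 beside its retrogene and the genes given as examples of copies were chosen after their values were seen. Members and lists were chosen with earlier results of these data known. On simulated counts, a shift of 20 points was called in 84% (up) and 96% (down) of genes for body CC over 17925 genes, in 84% and 58% for promoter CC over 14907, in 38% and 36% for promoter against body over 14020, and in 14% for HC/CH against HM/MH over 17925. A rise of 10 points in body HC/CH was called in 90%. Simulated shares could not pass the ends of the scale. The fall in body CC of replicate 2 and the rise in promoter CC of replicate 1 thus fell short of 20 points. Calls were drawn as independent, at the same share for all genes without a shift, and promoter against body was simulated around an even share. Real genes vary more than this, so these rates hold for the simulated setting only. Python 3.11.15, NumPy 2.4.6, SciPy 1.17.1, pandas 2.3.3, numba 0.67.0 and Matplotlib 3.10.9 were used.

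Alternatives were a coverage minimum of 10, a promoter of 500 bp, a minimum of 10 sites, other starts, bodies outside exons or within 4 kb, no sites of neighbouring genes, no paralogue symbols, correction by the spike-ins, per-site means, sites in both replicates, and each replicate alone. Genes on sex chromosomes were left out. A few genes that the naming rule picks are not reported here by name.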

Additional observations from a re-analysis of the deposited data

How the results depend on the processing

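No paired analysis was possible because there was 1 condition. Directions reversed in 4 of the values compared, all with supported transcript starts. Relative to the share over all tested genes, promoter CC went from -38.61 to 19.16 points at Rps2, from -18.38 to 16.86 at Rps14 and from -61.81 to 8.74 at Rpl17, and promoter minus body CC at Rpl17 went from -70.40 to 0.917 points. A minimum of 10 calls per site left only 3 bodies and 4 promoters measured. The supported transcript start and the 4-kb body limit were chosen after seeing the data. The causes of the changes below were not tested, beyond fewer sites or genes being measured. Shares in parentheses after a count are those of all genes tested.

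Promoter CC of the genes (94.4%) was 96.3% with a 500-bp promoter, 95.3% at supported starts, 95.5% after correction by the spike-ins and 95.7% without paralogue symbols. Body CC (71.7%) was 73.6% at a coverage minimum of 10, 79.0% beyond a 500-bp promoter, 73.8% at supported starts, 70.0% without sites of neighbouring genes, 66.1% outside exons, 82.3% within 4 kb, 72.5% after correction and 74.1% without paralogue symbols. Body MM (18.5%) was 16.5%, 13.6%, 16.7%, 19.7%, 22.4%, 11.4%, 19.4% and 16.6% in the same order. Body HC/CH (3.38%) was 2.52% beyond 500 bp, 3.68% outside exons and 2.30% within 4 kb. Body HM/MH (1.80%) was 2.01% at the coverage minimum, 1.36% beyond 500 bp, 1.07% within 4 kb and 1.28% after correction. Without sites of neighbouring genes, 3′ flank CC (68.8%) was 58.3% and HC/CH (5.09%) 6.46%. HC/CH minus HM/MH in bodies (1.58 points) was 1.98 after correction.

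At a coverage minimum of 10, the genes called were 2 of 3 higher in body CC (20.5%) and 0 lower (26.9%), 2 lower (17.4%) and 0 higher (15.6%) in MM, 1 lower in MC/CM (2.26%), 0 higher (3.01%) and 0 lower (1.30%) in HC/CH, 0 lower in HM/MH (0.0538%), 4 of 4 higher (37.3%) and 0 lower (13.0%) in promoter CC, 0 in HC/CH against HM/MH (0.0404%), and 0 of 0 pseudogene families. Outside exons they were 31 of 33 higher in CC (32.9%), 30 lower (30.6%) and 0 higher (21.0%) in MM, 15 lower in MC/CM (11.3%), 0 higher (11.6%) and 0 lower (7.86%) in HC/CH and 1 lower in HM/MH (1.98%). Within 4 kb they were 22 lower in MC/CM (5.23%), 0 higher (0.449%) and 1 lower (0.205%) in HC/CH and 0 lower in HM/MH (0%). With supported starts they were 0 higher (12.6%) and 1 lower (8.43%) in HC/CH, 1 lower in HM/MH (1.95%), 2 lower in promoter CC (28.7%), 0 lower in promoter against body (3.2%) and 0 higher in HC/CH against HM/MH (7.92%). Without sites of neighbouring genes they were 0 higher (13.1%) and 1 lower (8.47%) in HC/CH, 1 lower in HM/MH (2.13%), 3 of 54 lower in promoter CC (29.8%), 1 lower in promoter against body (3.36%), 0 higher in 3′ flank HC/CH (0.353%), 0 higher in 3′ flank against body (0.189%) and 0 higher in HC/CH against HM/MH (8.11%). With a 500-bp promoter, 64 of 74 were lower in MC/CM (18.8%), 6 lower in HC/CH (8.27%), 0 lower in promoter against body (2.05%) and 2 higher in 3′ flank against body (0.377%). A minimum of 10 sites left 0 lower in promoter against body (1.86%), and parent exons beyond 1 kb 11 of 12 families.

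With either replicate alone, the genes called ranged from 1 (41.7%) to 2 (36.7%) lower in body CC, 1 (35.5%) to 2 (28.6%) higher in MM, 2 (31.7%) to 3 (15.1%) higher and 2 (9.93%) to 20 (20.7%) lower in HC/CH, 2 (3.64%) to 28 (11.3%) lower in HM/MH, 1 (1.47%) to 10 (9.02%) higher and 1 (0.318%) to 13 (7.31%) lower in 3′ flank HC/CH, 1 (0.675%) to 12 (5.69%) higher and 0 (0.308%) to 2 (6.25%) lower in 3′ flank against body, and 1 (15.1%) to 4 (24.6%) in HC/CH against HM/MH, the higher counts coming from replicate 1 except for body CC, MM and higher HC/CH.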

Other observations

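In CC, exons and introns of ribosomal protein gene bodies differed less from each other than from those of other genes. Exons beyond 1 kb had CC of 77.3% and 78.3% and introns 67.4% and 65.0%, against 25.9% and 22.5% in exons and 20.7% and 17.6% in introns of all other genes. HC/CH was 2.79% and 3.33% in these exons and 3.71% and 3.65% in the introns.

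The spans of 27 of the genes hold 53 annotated genes of snoRNAs or the related scaRNAs on the same strand, which guide the modification of other RNAs. Whether each lies in an intron was not tested. The 22 hosts with a measured body had a median body CC of 82.5% and 84.6%, and the 34 other genes 77.1% and 77.3%. Median HC/CH was 2.19% and 1.22% in hosts and 3.17% and 2.82% in the others. These medians were not tested, and gene length was not held equal.

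CpG density per 100 bp was 4.51 in promoters of the ribosomal protein genes and 3.36 in those of other genes, 1.47 against 0.942 in bodies and 1.34 against 1.12 in 3′ flanks. The deposited sites held 55.7% and 21.5% of the promoter CpGs of the ribosomal protein genes, against 45.3% and 15.6% for other genes. Across the 56 genes with a measured body, the replicates' levels had a Spearman correlation of 0.872 for CC, 0.622 for HC/CH and 0.426 for HM/MH, given as a description of genes that share libraries.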
